A study of Mus musculus with 23 samples.

Results

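Placental gene clusters of the mouse genome were examined for DNA methylation in early post-implantation embryos. The 3 regions were the prolactin cluster (chr13:27000000-28000000), the cluster of Psg and Ceacam genes (chr7:17700000-18850000) and the cluster of placental cathepsins (chr13:60500000-61600000), all in GRCm38. A member was any window of the deposited methylation tables whose midpoint lay in 1 of these regions, so the choice used position and no measured value. At E7.5, 348 of 402812 windows were members, of which 78 were in the prolactin, 126 in the Psg and Ceacam and 144 in the cathepsin cluster. At E6.5, 277 of 333984 windows were members, with 61, 98 and 118 in the same order. Windows of each table were defined by the authors over CpG positions and not over a fixed length, so they were longer where CpGs are rarer, and the number of CpGs in the reference differed between windows.

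All embryos were hybrids of C57BL6/Babr (B6) and CAST/EiJ (CAST) mice, with the mother's strain written first. At E6.5, 15 libraries came from pooled epiblast (Epi), which gives rise to the embryo proper, or from pooled extra-embryonic ectoderm (ExE), the trophoblast tissue that contributes to the placenta. There were 3 Epi and 2 ExE libraries of B6/CAST, the same numbers of CAST/B6, and 2 Epi and 3 ExE libraries of matDKO/CAST. The last group had mothers on a B6/129 background with floxed Dnmt3a and Dnmt3b and Zp3-cre, which is active in oocytes, so that the oocyte lacked both de novo methyltransferases, and its fathers were CAST. The embryos themselves keep the paternal copies of both genes. The matDKO/CAST embryos can carry maternal alleles of 129 origin, which B6/CAST embryos do not. At E7.5, 8 libraries came from single wild-type embryos, with 2 Epi and 2 ExE libraries for each of B6/CAST and CAST/B6. The E6.5 DNA was a fraction of micrococcal nuclease-digested chromatin and the E7.5 DNA was not, so day and preparation cannot be told apart, and levels were compared only within a day.

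The 3 clusters arose by repeated gene duplication in rodents. Prolactin-family genes encode hormones that signal through, or resemble ligands of, the prolactin receptor, and most members other than Prl itself are made by trophoblast or decidua. Psg genes encode pregnancy-specific glycoproteins secreted by trophoblast, and the related Ceacam genes encode proteins of the immunoglobulin superfamily. The placental cathepsins are cysteine proteases related to cathepsin L, and their cluster also holds Ctla2a and Ctla2b, which resemble the inhibitory propeptide of a cathepsin, and Tpbpa and Tpbpb, of which Tpbpa marks the ectoplacental cone and spongiotrophoblast. Placental DNA is known for lower methylation than embryonic DNA, largely outside CpG islands.

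The family genes start in CpG-poor DNA, which sets what a window around a start can show. RefSeq promoters, taken as 250 bases before to 50 bases after each start in GRCm38.p6, were matched by symbol for 44 of the 50 family genes. They held a median of 2 CpGs and at most 5, and 38 of the 44 (86.4%) held the motif CG at all. Among all 32851 RefSeq promoters of that length the median was 7 CpGs and 94.6% held the motif. At most 5 CpGs were found in 43.6% of all promoters. Since CG reads the same on both strands, each match was counted once.

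Promoters of the prolactin family are printed 5′ to 3′ on the sense strand with each CG in capitals, for an early placental lactogen and for the members with the most and the fewest CpGs. Prl3d1 encodes placental lactogen I of giant cells (chr13:27093939-27094238, plus strand, 3 CpGs). Prl2b1 lies at chr13:27390797-27391096 on the minus strand with 5 CpGs, and Prl3c1 at chr13:27196410-27196709 on the plus strand with 0.
Prl3d1: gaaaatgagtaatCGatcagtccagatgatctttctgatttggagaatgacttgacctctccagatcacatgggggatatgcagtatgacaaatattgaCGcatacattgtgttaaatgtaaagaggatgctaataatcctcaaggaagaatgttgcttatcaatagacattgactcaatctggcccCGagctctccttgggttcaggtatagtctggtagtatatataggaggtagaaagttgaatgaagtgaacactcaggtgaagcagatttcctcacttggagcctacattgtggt
Prl2b1: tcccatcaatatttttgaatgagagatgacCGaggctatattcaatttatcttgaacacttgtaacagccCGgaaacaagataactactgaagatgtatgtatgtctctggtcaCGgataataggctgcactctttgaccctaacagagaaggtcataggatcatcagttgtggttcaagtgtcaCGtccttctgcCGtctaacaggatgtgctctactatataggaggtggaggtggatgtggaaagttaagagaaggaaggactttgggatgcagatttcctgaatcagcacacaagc
Prl3c1: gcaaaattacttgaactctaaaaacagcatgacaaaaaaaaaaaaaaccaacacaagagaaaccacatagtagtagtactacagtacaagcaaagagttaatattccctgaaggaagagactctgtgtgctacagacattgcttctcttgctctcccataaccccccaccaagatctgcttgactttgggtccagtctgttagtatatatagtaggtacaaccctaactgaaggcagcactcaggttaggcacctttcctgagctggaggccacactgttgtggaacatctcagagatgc

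For the Psg genes, Psg21 (chr7:18656676-18656975, minus strand) and Psg28 (chr7:18432006-18432305, minus strand) are shown because their E7.5 start windows differed in whether they passed the test of tissue described further on. Each held 2 CpGs.
Psg21: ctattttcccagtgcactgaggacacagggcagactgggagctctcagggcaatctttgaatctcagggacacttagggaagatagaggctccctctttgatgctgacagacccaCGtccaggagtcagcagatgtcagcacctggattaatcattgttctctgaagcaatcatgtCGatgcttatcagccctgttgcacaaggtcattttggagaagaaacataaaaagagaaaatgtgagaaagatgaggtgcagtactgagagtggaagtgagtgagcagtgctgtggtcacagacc
Psg28: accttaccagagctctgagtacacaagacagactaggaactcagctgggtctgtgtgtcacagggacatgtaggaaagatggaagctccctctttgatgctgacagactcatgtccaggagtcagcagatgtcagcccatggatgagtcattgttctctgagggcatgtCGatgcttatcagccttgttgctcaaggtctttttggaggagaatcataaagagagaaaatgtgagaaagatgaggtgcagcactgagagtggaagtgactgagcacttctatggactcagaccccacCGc

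In the cathepsin cluster, Tpbpa (chr13:60941887-60942186, minus strand) and the giant cell protease gene Ctsq (chr13:61040548-61040847, minus strand) held 2 CpGs each. The promoter of Dapk1, a death-associated kinase gene that is not placental and shares the region, lies at chr13:60601961-60602260 on the plus strand. It held 38 CpGs and is the contrast to the family genes.
Tpbpa: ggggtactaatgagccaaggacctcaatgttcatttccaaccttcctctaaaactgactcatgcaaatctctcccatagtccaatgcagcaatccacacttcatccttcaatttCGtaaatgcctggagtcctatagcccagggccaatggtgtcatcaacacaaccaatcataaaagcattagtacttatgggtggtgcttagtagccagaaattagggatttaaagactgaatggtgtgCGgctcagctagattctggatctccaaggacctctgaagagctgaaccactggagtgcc
Ctsq: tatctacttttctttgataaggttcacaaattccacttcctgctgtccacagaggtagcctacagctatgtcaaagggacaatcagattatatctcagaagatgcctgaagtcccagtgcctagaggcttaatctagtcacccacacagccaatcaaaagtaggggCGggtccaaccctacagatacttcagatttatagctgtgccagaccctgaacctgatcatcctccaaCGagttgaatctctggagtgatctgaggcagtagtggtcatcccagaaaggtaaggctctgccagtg
Dapk1: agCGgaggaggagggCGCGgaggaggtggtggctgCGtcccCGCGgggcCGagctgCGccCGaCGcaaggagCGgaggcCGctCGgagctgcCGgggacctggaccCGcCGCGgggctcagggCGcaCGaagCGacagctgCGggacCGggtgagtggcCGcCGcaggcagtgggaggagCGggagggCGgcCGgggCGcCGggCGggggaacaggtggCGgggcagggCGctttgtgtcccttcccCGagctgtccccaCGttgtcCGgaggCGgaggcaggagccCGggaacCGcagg

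Member windows were long. At E7.5 the median length was 13.2 kb in the prolactin, 9.14 kb in the Psg and Ceacam and 7.06 kb in the cathepsin cluster, against 5.21 kb for the other 383998 autosomal windows. The corresponding CpG densities were 4.44, 5.91, 8.57 and 9.86 per kb, with a median of 51 to 55 CpGs in a window. The prolactin windows were also the poorest in G and C (median 37.4%, against 43.8% elsewhere), and soft-masked repeats took a median of 43.3% of prolactin and 48.6% of Psg and Ceacam windows. A start window, meaning the window that contains a gene's annotated start, was therefore mostly flanking sequence. The clusters hold near-identical copies, for example Prl3d1, Prl3d2 and Prl3d3, and values of such copies are uncertain because the effect of read placement between copies was not tested.

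All 348 E7.5 members had a value in all 8 libraries. At E6.5 the share of members with a value ran from 64.3% in 1 matDKO/CAST Epi library to 100%, and 124 of 277 had a value in all 15. The tables give no coverage, so the depth behind a value is unknown. Over the other autosomal windows, library means were 71.7% to 75.6% in Epi and 56.1% to 59.2% in ExE at E7.5. As a check of tissue, the start window of Pou5f1, a pluripotency factor gene, was at 18.1% ± 5.91 in Epi and 38.9% ± 2.28 in ExE (SD, n = 4 each), and that of Elf5, a trophoblast factor gene, at 85.9% ± 5.06 and 63.9% ± 3.65. The Elf5 window was thus lower in ExE but not low. Dissected tissue is a mixture of cells, so a lower level in every cell and a larger share of cells with low levels cannot be told apart. For E6.5 and E7.5 alike, p-values measure the spread between libraries, which came from pools or single embryos.

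All 3 clusters were less methylated in ExE than in Epi at E7.5, and the prolactin cluster had the largest difference. Over its 78 windows the 4 Epi libraries were at 79.3% and 74.4% (B6/CAST replicates 1 and 2) and at 76.3% and 79.2% (CAST/B6 replicates 1 and 2). The ExE libraries were at 54.7%, 50.6%, 45.7% and 53.1% in the same order. Every Epi library was thus above every ExE library, and the Epi mean of 77.3% ± 2.39 exceeded the ExE mean of 51.0% ± 3.90 (SD, n = 4 each) by 26.3 percentage points. Over the 126 Psg and Ceacam windows, Epi was at 77.5%, 74.0%, 76.9% and 78.9% and ExE at 59.1%, 56.3%, 57.3% and 61.4%. The difference there was 18.3 points, again without overlap. Over the 144 cathepsin windows, Epi was at 79.0%, 75.4%, 77.9% and 79.7% and ExE at 60.8%, 58.1%, 55.8% and 60.6%, a difference of 19.2 points.

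For each cluster p was 0.0286 by a two-sided exact permutation test, the smallest value that 4 against 4 libraries allow, and p = 0.0762 after Benjamini-Hochberg adjustment over 24 such tests of cluster means, none of which passed after adjustment. Within B6/CAST the differences were 24.2, 18.1 and 17.7 points for the prolactin, Psg and Ceacam, and cathepsin clusters. Within CAST/B6 they were 28.4, 18.6 and 20.6 points.

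**Figure D1:**
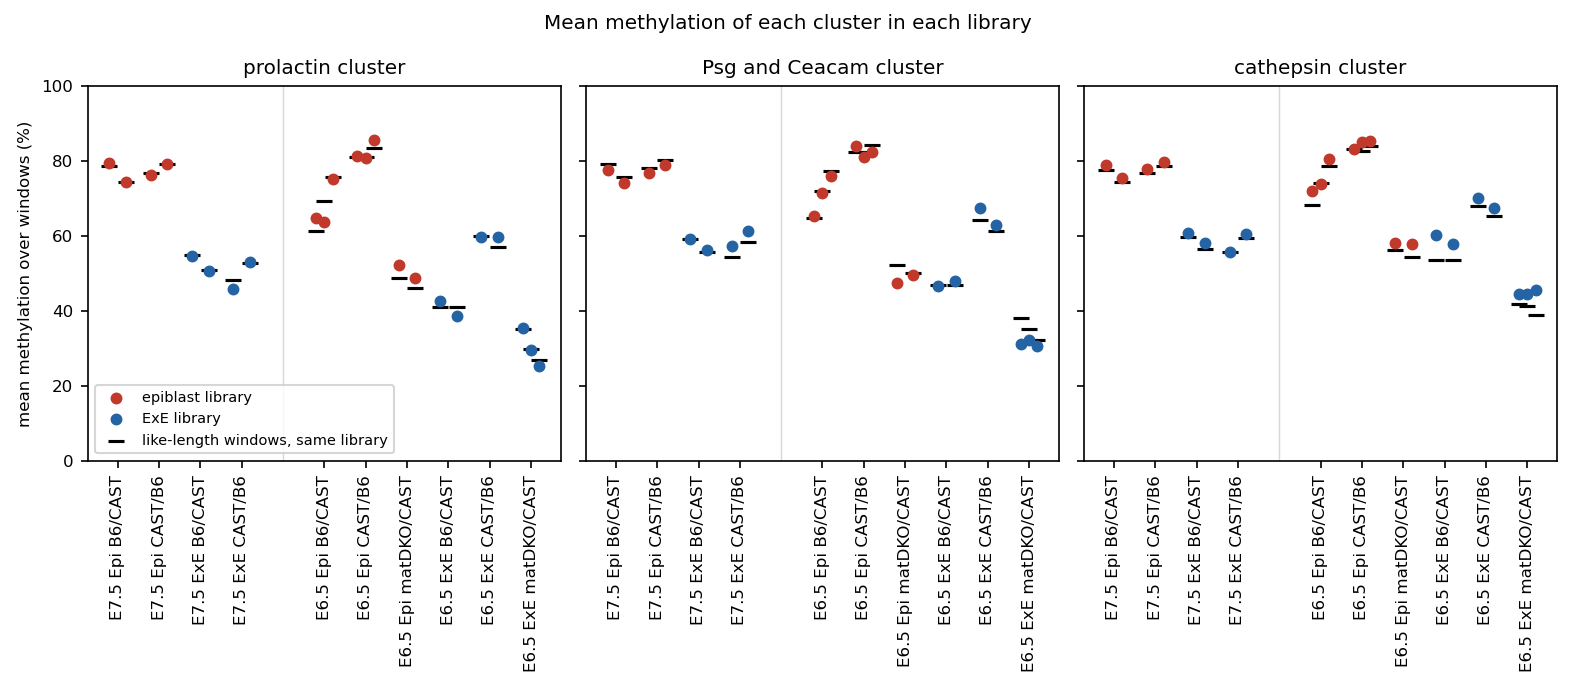
Mean methylation of each cluster (y axis, percent) in each library (x axis, by day, tissue and cross), with dots for the cluster and black ticks for autosomal windows of like length in the same library. E6.5 dots use the windows with a value in all 15 libraries. At E7.5 all ExE dots of the prolactin cluster lie between 45.7% and 54.7%, below all Epi dots.

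Much of this pattern was shared by other long windows. Each member was set against the mean of other autosomal windows in the same of 20 length bins, which for the prolactin cluster gave 77.3% in Epi and 51.7% in ExE. The prolactin cluster was therefore at 0.0567 ± 0.508 points from like-length windows in Epi and at -0.703 ± 1.28 in ExE (SD, n = 4 each), and these did not differ beyond their spread (difference 0.760, exact permutation p = 0.371). With 5 length bins, or with like-length windows of the same chromosome alone, the difference became 2.03 and 2.02 points (exact permutation p = 0.0286 for both). The cathepsin cluster was slightly above like-length windows in both tissues, by 1.19 ± 0.183 points in Epi and 0.950 ± 0.666 in ExE (difference 0.238, p = 0.800 by the exact permutation test). With windows of the same chromosome as the reference its difference was 1.12 points (exact permutation p = 0.0286).

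The Psg and Ceacam cluster departed from like-length windows in opposite directions. It was lower in Epi, by -1.45 ± 0.207 points (from -1.65 to -1.27), and higher in ExE, by 1.60 ± 1.61 points (from -0.0598 to 3.09). Its tissue difference was thus 3.05 points smaller than that of like-length windows (exact permutation p = 0.0286, adjusted 0.0762 over 24 tests), and the deficit was -1.85 points within B6/CAST and -4.25 within CAST/B6. With every second window only, it was -2.56 (exact permutation p = 0.0857), and without any 1 of the Epi libraries p was above 0.05 as well.

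Window by window, 329 of 348 members were higher in Epi than in ExE at E7.5 (limma with the cross as a covariate, adjusted p under 0.05 over all windows) and 0 were lower. The background was high, since 82.9% of the 383556 autosomal windows tested were called higher in Epi, and 91.6% of windows of like length. By cluster, 77 of 78 prolactin, 117 of 126 Psg and Ceacam and 135 of 144 cathepsin windows were called, against like-length shares of 95.6%, 92.7% and 88.5%. The groups of 4 libraries did not overlap in 71, 99 and 124 windows of the 3 clusters, and in 73.7% of other autosomal windows. The median difference was 27.3 points in the prolactin, 19.0 in the Psg and Ceacam and 19.7 in the cathepsin cluster, beside 16.5 points in the other windows. With a difference of at least 20 points asked for as well, 187 members were called, beside 36.2% of all autosomal windows.

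**Figure D2:**
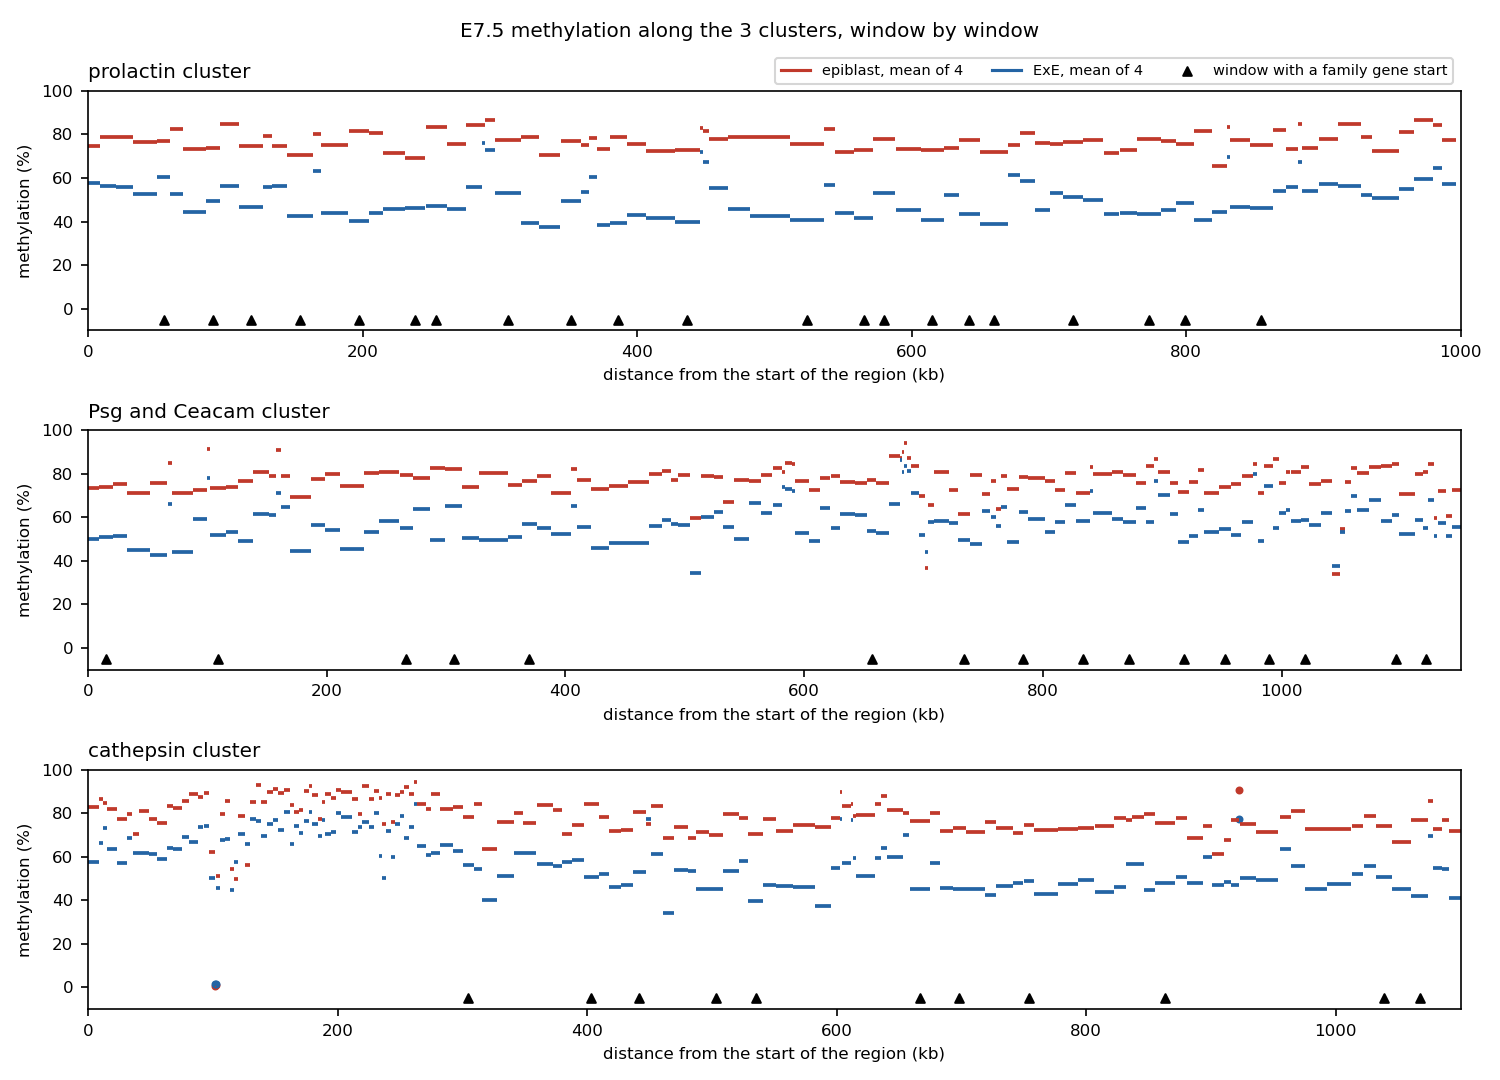
Methylation (y axis, percent, mean of 4 E7.5 libraries) of every member window of the 3 clusters along the region (x axis, kb from its start), with red for epiblast, blue for ExE and triangles for windows with a family gene start. A dot stands for a window shorter than 1 kb. The prolactin profile lies between 65.7% and 86.6% in epiblast and between 37.6% and 76.2% in ExE. The Dapk1 promoter is the pair of dots near 0 in the cathepsin panel.

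Windows differed within each cluster. Across windows, Epi means had an SD of 4.43 points and ExE means one of 8.87 in the prolactin cluster, against 8.30 and 9.28 in the Psg and Ceacam and 12.4 and 13.7 in the cathepsin cluster. The ExE means ran from 37.6% to 76.2% in the prolactin cluster. CpG-poor windows had the larger tissue differences. Spearman's rho between the difference and the CpG density was -0.598 over 78 prolactin, -0.574 over 126 Psg and Ceacam and -0.756 over 144 cathepsin windows, and -0.654 over 383208 other autosomal windows. Neighbouring windows share libraries and sequence composition, so these are descriptions. The sign was the same in each cluster as elsewhere, as the plot of difference against density shows.

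**Figure D3:**
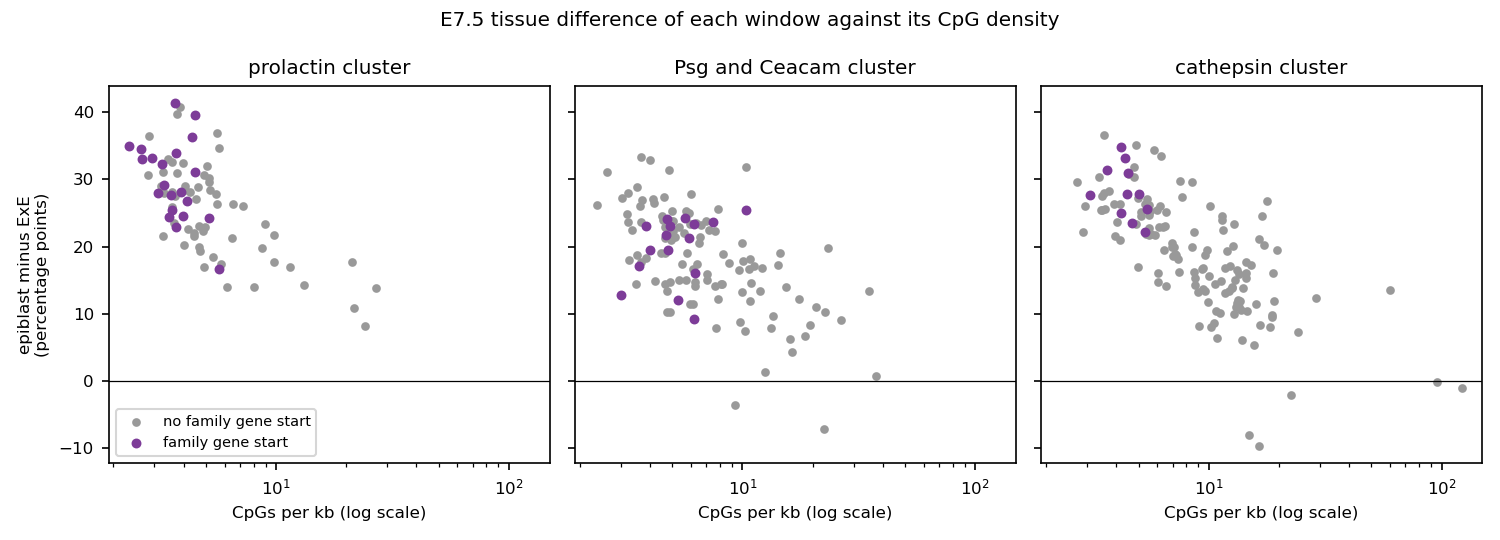
Epiblast minus ExE methylation at E7.5 (y axis, percentage points) of each member window against its CpGs per kb (x axis, log scale), 1 panel per cluster. Some CpG-poor windows of each cluster have differences above 30 points, and the CpG-dense Dapk1 promoter in the cathepsin panel is near 0. The lowest differences lie at lower densities than that promoter. They are -9.67 points at 16.4 CpGs per kb in the cathepsin panel and -7.13 points at 22.4 in the Psg and Ceacam panel.

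The cathepsin region had 2 unlike parts. The 75 windows between the first and the last family gene had a median length of 9.60 kb, and they were at 76.1% ± 2.32 in Epi and 52.3% ± 3.59 in ExE (SD, n = 4 each), with a median difference of 24.9 points. The 69 windows outside that span, which include the Dapk1 gene, had a median length of 4.30 kb and were at 80.1% ± 1.45 and 65.8% ± 2.08, with a median difference of 15.1 points. In its ExE level and its tissue difference, though not in its Epi level, the part with the cathepsin genes was therefore closer to the prolactin cluster than the whole region was. In the prolactin cluster the 61 windows within the gene span had a median difference of 28.2 points and the 17 outside it one of 21.6 points.

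The widest and the lowest Epi minus ExE differences in each cluster, with the sign kept, were looked at singly, as a description. In the prolactin cluster the widest was the window that holds the start of Prl3c1 (chr13:27190149-27204624), at 82.7%, 85.3%, 73.8% and 84.1% in Epi and 56.8%, 38.5%, 24.2% and 41.2% in ExE, a difference of 41.3 points. It was followed by a window over Prl2a1 (chr13:27805640-27819147) with 40.8 points. The lowest difference was in a CpG-richer window that overlaps no annotated gene (chr13:27287398-27289468, 24.1 CpGs per kb) with 8.25 points. It was the 1 prolactin window that was not called (limma adjusted p = 0.129).

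In the Psg and Ceacam cluster the widest were a window over Ceacam5 (chr7:17752116-17766599) with 33.3 points and one upstream of Ceacam13 (chr7:17986278-17999193) with 32.9 points. The lowest differences were in 2 windows with no annotated gene. The window chr7:18401203-18403743 was at 28.7%, 44.3%, 31.0% and 43.6% in Epi and 35.9%, 48.4%, 47.9% and 43.9% in ExE (difference -7.13, limma adjusted p = 0.166). The window chr7:18742267-18748620 was at 39.1%, 41.0%, 32.3% and 23.8% in Epi and 37.5%, 31.1%, 41.8% and 39.9% in ExE (difference -3.52, limma adjusted p = 0.441). These were the 2 of 126 windows with a difference below 0, and in both the tissues overlapped. An overlapping window of the E6.5 table (chr7:18745203-18750444) was at 5.56% to 27.1% in the wild-type Epi libraries that had a value.

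In the cathepsin region the widest windows were chr13:61082283-61095498 with 36.5 points, which overlaps no annotated gene, and chr13:61345991-61355222 over Cts7 with 35.0 points. The lowest differences lay inside Dapk1, at chr13:60626006-60629476 (-9.67 points, limma adjusted p = 0.0921) and chr13:60617048-60620148 (-7.94 points, limma adjusted p = 0.0869). Only 2 of the 348 members were under 20% in both tissues, and both lay at the Dapk1 promoter (chr13:60601671-60602054 and chr13:60602055-60602579). They were at 0.627% and 1.29% in Epi and at 1.60% and 1.42% in ExE, which is where the promoter with 38 CpGs printed above lies.

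No start window of the 50 family genes was under 20% in ExE. The lowest ExE mean of a start window was 39.0%, whereas 45.7% of the 19308 start windows elsewhere on the autosomes were under 20% in ExE (median 24.8%). Start windows of family genes are long and CpG-poor, so a short unmethylated stretch at a start would not show at this resolution. Between the first and the last family gene, the ExE median of start windows was 44.8% in the prolactin, 56.2% in the Psg and Ceacam and 48.0% in the cathepsin cluster, against 46.8%, 58.2% and 51.7% in the other windows there. The median tissue differences were 30.1, 21.5 and 27.9 points in start windows beside 28.2, 18.9 and 24.2 points. Start windows were also longer, with medians of 15.7, 10.1 and 12.0 kb beside 11.1, 9.31 and 9.32 kb, and these differences were not tested.

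**Figure D4:**
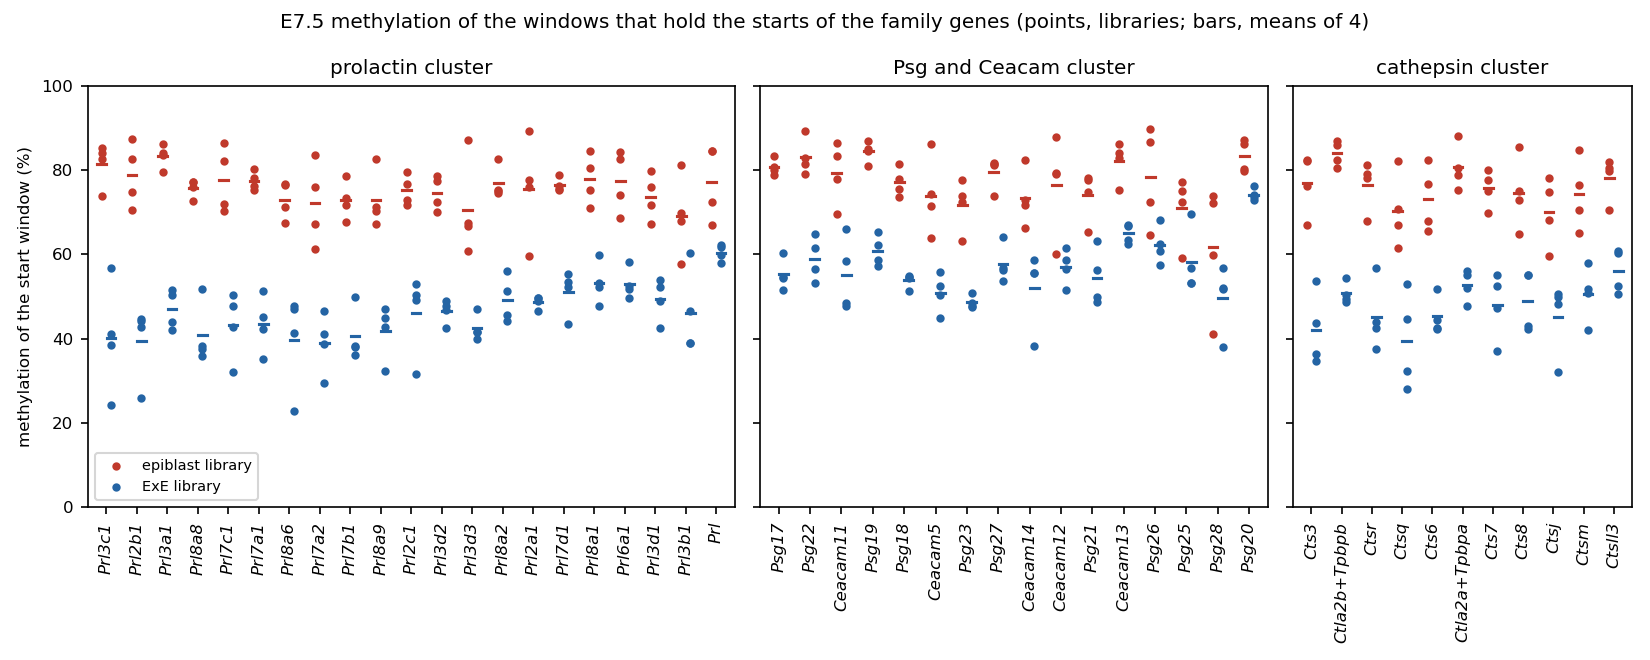
Methylation (y axis, percent) of the E7.5 windows that hold the starts of the family genes (x axis, ordered by tissue difference within each cluster), with red dots for the 4 epiblast and blue dots for the 4 ExE libraries and bars for means. Of the prolactin genes, Prl3b1 alone has overlapping tissues, and Psg20 has the smallest difference of all genes shown, 9.17 points.

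All 21 prolactin-family start windows were called higher in Epi by limma, and in 20 of them the tissues did not overlap. The count of calls is close to its background, since 82.9% of all autosomal windows were called and 95.6% of windows of like length to all prolactin members. No like-length share was computed for start windows alone. In 73.7% of other windows the tissues did not overlap. The counts of start windows in the other clusters stand beside a like background. Prl, the pituitary hormone gene, had the smallest difference (16.7 points), at 84.6%, 72.5%, 67.0% and 84.5% in Epi and 59.8%, 61.7%, 62.3% and 57.9% in ExE (limma adjusted p = 0.00508). Its ExE mean of 60.4% was the highest of the 21. The placental lactogen I gene Prl3d1 was at 79.9%, 75.9%, 67.3% and 71.7% in Epi and 52.3%, 42.6%, 48.9% and 53.8% in ExE, a difference of 24.3 points (limma adjusted p = 0.000334). Its copies Prl3d2 and Prl3d3 differed by 28.1 and 27.9 points. The placental lactogen II gene Prl3b1, which is used later in gestation, was at 67.9%, 57.7%, 69.7% and 81.2% in Epi and 39.0%, 60.2%, 39.0% and 46.6% in ExE (23.0 points), and 1 ExE library lay above 1 Epi library.

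The differences of the other named prolactin-family genes varied. Prl7d1, which encodes a proliferin-related, anti-angiogenic hormone, was even in Epi (SD 1.58), at 78.8%, 75.7%, 76.3% and 75.3% in Epi and 55.4%, 53.4%, 43.4% and 52.2% in ExE (25.4 points, limma adjusted p = 0.000107). Prl8a9, a spongiotrophoblast hormone gene, differed by 31.1 points, and Prl7a1 by 34.0. Prl7b1 differed by 32.3 points, Prl2a1 by 26.8 and Prl6a1 by 24.4. The genes Prl4a1 and Prl5a1, which start beyond the distal edge of the region, differed by 31.3 and 18.3 points.

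Of the 16 Psg and Ceacam genes, 15 start windows were called higher in Epi and 12 had no overlap between tissues. Psg17 was at 80.8%, 78.9%, 80.0% and 83.3% in Epi and 54.8%, 51.6%, 60.3% and 54.5% in ExE, the largest difference in this cluster (25.5 points, limma adjusted p = 8.49e-05). Psg21 and Psg23, which are expressed in spongiotrophoblast and giant cells, differed by 19.5 and 23.1 points. Psg23 had the lowest ExE mean of these start windows, 48.7%. Psg19 differed by 23.6 points and Ceacam5, the first gene of the cluster, by 23.1.

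Psg28 was the gene whose window did not pass at E7.5. It was at 73.9%, 59.8%, 41.0% and 72.3% in Epi and 52.1%, 51.8%, 38.0% and 56.7% in ExE (12.1 points, limma adjusted p = 0.132). At E6.5 its start window was called, with 20.6 points (limma adjusted p = 0.00904). The library of CAST/B6 replicate 1 was lowest in both tissues, and the spread among Epi libraries (SD 15.2) was the widest of the start windows in that cluster. Psg20 was called with 9.17 points, with both tissues high and even, at 83.4% ± 3.89 in Epi and 74.2% ± 1.39 in ExE (limma adjusted p = 0.00359). Among relatives outside the region, Psg29 differed by 30.2 points, Psg16 by 14.6, Ceacam9 by 28.8 and Ceacam10 by 19.1.

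The 13 genes of the cathepsin cluster start in 11 windows, all of which were called higher in Epi, with no overlap between tissues. Ctla2a and Tpbpa share a window, as do Ctla2b and Tpbpb. The Tpbpa window was at 88.0%, 75.2%, 78.9% and 80.6% in Epi and 55.2%, 56.2%, 47.8% and 52.0% in ExE (27.9 points, limma adjusted p = 0.000122). The Tpbpb window differed by 33.2 points and was the most even, with SDs of 2.98 in Epi and 2.63 in ExE. Cts3 had the largest difference (34.8 points), at 76.9% ± 7.30 in Epi and 42.1% ± 8.64 in ExE.

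The protease gene Ctsq had the lowest ExE mean of the start windows in the cathepsin cluster. It was at 67.0%, 61.5%, 82.1% and 70.8% in Epi and 53.0%, 44.7%, 28.1% and 32.3% in ExE (30.9 points, limma adjusted p = 0.00162), and its CAST/B6 ExE libraries were both below its B6/CAST ExE libraries. Ctsr differed by 31.4 points, Cts6 by 27.9, Cts7 by 27.7 and Cts8 by 25.6. Ctsj and Ctsm differed by 24.9 and 23.5 points. All of these are proteases of trophoblast.

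Besides the relatives named above, values were taken for 19 prolactin, Ceacam and cathepsin genes with starts outside the regions, and the start windows of 13 were called higher in Epi, beside 82.9% of all autosomal windows. The proliferin gene Prl2c2 of giant cells, elsewhere on chromosome 13, had the largest difference of the genes named here, 42.9 points (74.3% ± 4.82 in Epi and 31.4% ± 4.05 in ExE, SD, n = 4 each). The E7.5 start windows of the lysosomal cathepsins Ctsb, Ctsc, Ctsd and Ctsf were under 20% in both tissues, and that of Ctsl, the widely expressed relative of the placental cathepsins, was at 80.3% and 51.4%. The E6.5 windows over the same starts, which have other ends, were at 28.9% in Epi and 22.5% in ExE for Ctsl, at 44.3% and 29.8% for Ctsb and at 52.0% and 23.6% for Ctsf, and day and window ends cannot be told apart here.

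At E6.5 the same direction was found, over fewer windows and with a wider spread. Wild-type Epi and ExE were compared over 43 prolactin, 79 Psg and Ceacam and 86 cathepsin windows with a value in all 10 libraries. In the prolactin cluster the B6/CAST Epi libraries were at 63.5%, 66.1% and 75.6% and the CAST/B6 Epi libraries at 81.5%, 80.5% and 86.3%. The ExE libraries were at 40.5% and 39.2% in B6/CAST and 62.2% and 60.3% in CAST/B6. No ExE library reached an Epi library, but the highest ExE and the lowest Epi library were close and came from different crosses. Epi averaged 75.6% ± 9.07 (SD over 6 libraries) and ExE 50.5% ± 12.4 (SD over 4), 25.1 points apart (exact permutation p = 0.00952, adjusted 0.0762 over 24 tests).

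The Psg and Ceacam cluster was at 77.1% ± 7.49 in Epi and 55.8% ± 9.76 in ExE at E6.5 (21.3 points, exact permutation p = 0.0143), and the cathepsin cluster at 79.3% ± 5.99 and 62.1% ± 6.33 (17.2 points, exact permutation p = 0.00952), with n = 6 and 4 and the adjusted p at 0.0762 for both. The highest ExE library of the Psg and Ceacam cluster (66.1%) was above its lowest Epi library (65.3%), and in the cathepsin cluster the tissues did not overlap. Within B6/CAST the differences were 28.6, 23.7 and 17.9 points for the 3 clusters, and within CAST/B6 21.5, 18.9 and 16.4 points. Set against like-length windows the differences were -0.203, -1.06 and -1.74 points (exact permutation p = 0.886, 0.0810 and 0.110). The difference was -1.83 for Psg and Ceacam with fewer libraries required in each group, and for cathepsin -3.02 as a median over windows and -2.32 without values of 0 or 100 (exact permutation p from 0.00476 to 0.0381). With 1 library left out it ran from -1.67 to -0.662 for Psg and Ceacam and from -2.49 to -0.821 for cathepsin, with an exact permutation p under 0.05 for the former without Epi B6/CAST replicate 3 or Epi CAST/B6 replicate 1 and for the latter without ExE CAST/B6 replicate 1. By limma, 151 of 208 members were called higher in Epi and 0 lower, beside 59.6% of all autosomal windows and 74.1% of like-length windows. By cluster these were 35 of 43, 64 of 79 and 52 of 86 windows.

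Start windows pointed the same way at E6.5. With complete values, 11 of 12 start windows in the prolactin and 13 of 13 in the Psg and Ceacam cluster were called higher in Epi. In the cathepsin cluster 7 of 9 were called. The like-length shares for all members of the 3 clusters were 83.4%, 76.8% and 66.9%, and none was computed for start windows alone. Some of the start windows hold the starts of more than 1 gene. The gene starts that were not called were those of Prl3d1 (16.5 points, limma adjusted p = 0.103), Ctsj (15.9 points, limma adjusted p = 0.191) and Ctsq (15.96 points, limma adjusted p = 0.0915). Cts8 had one of the larger differences, 41.6 points, with 74.7% in Epi and 33.1% in ExE (limma adjusted p = 0.000471).

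The reciprocal crosses differed at E6.5, as they did in other windows. In Epi, CAST/B6 was above B6/CAST by 15.04 points in the prolactin, 11.8 in the Psg and Ceacam and 9.38 in the cathepsin cluster, where like-length windows gave 13.1, 11.8 and 9.53 points. In ExE the values were 20.7, 16.6 and 11.4 points, beside 17.2, 15.7 and 13.4 for like-length windows. No exact permutation test of 3 against 3 or 2 against 2 libraries can pass 0.05, so none was made. For single windows, limma called 0 of 139 members in Epi and 0 of 199 in ExE, and 0% of all autosomal windows in either tissue. At an unadjusted p under 0.05 there were 25 and 68 members, beside 14.2% and 23.3% of all autosomal windows.

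At E7.5 the crosses were close in all 3 clusters. CAST/B6 minus B6/CAST was 0.897, 2.13 and 1.64 points in Epi and -3.26, 1.63 and -1.26 points in ExE. With limma, 0 of 348 members were called in each tissue, and 0% of all autosomal windows in either tissue. At an unadjusted p under 0.05 there were 24 members in Epi and 33 in ExE, beside 5.8% and 5.77% of all autosomal windows. In ExE the Psg and Ceacam cluster was 2.76 points higher in CAST/B6 relative to like-length windows. No test of that value was made.

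Methylation of the 3 clusters was lower in matDKO/CAST than in B6/CAST embryos in both tissues. Maternal genotype and maternal alleles of 129 origin cannot be told apart here. In Epi the prolactin cluster (27 windows) was at 50.4% and 46.9% in matDKO/CAST and at 62.8%, 65.2% and 74.1% in B6/CAST, a difference of -18.7 points. The Psg and Ceacam cluster (46 windows) was at 47.0% and 48.9% in matDKO/CAST and at 64.7%, 71.7% and 75.7% in B6/CAST (-22.7 points). The cathepsin cluster (66 windows) was at 58.9% and 57.4% in matDKO/CAST and at 71.8%, 73.2% and 79.8% in B6/CAST (-16.8 points). No matDKO/CAST Epi library overlapped with a B6/CAST Epi library in any cluster, but 2 against 3 libraries cannot give an exact permutation p under 0.1. Relative to like-length windows the differences were 2.76, -2.34 and 1.53 points. Without 1 library at a time they ran from 0.276 to 4.21 for prolactin and from -6.00 to -0.460 for Psg and Ceacam. For cathepsin the difference was within the pooled SD between libraries, 1.91 points.

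By limma, 45 of 139 members were lower in matDKO/CAST Epi and 0 were higher, beside 23.4% of all autosomal windows called lower and 27.7% of like-length windows. These were 7 of 27 prolactin, 18 of 46 Psg and Ceacam and 20 of 66 cathepsin windows. Of the start windows tested, 3 of 6 in the prolactin, 3 of 7 in the Psg and Ceacam and 3 of 6 in the cathepsin cluster were called lower. They were the shared window of Prl3a1 and Prl3b1 (-32.6 points), those of Prl3c1 (-28.7) and Prl8a2 (-37.9), those of Psg21 (-19.4), Psg23 (-42.8) and Psg27 (-38.3), and those of Tpbpa and Ctla2a (-27.0), Tpbpb and Ctla2b (-31.2) and Cts6 (-28.5). The start windows that were not called ran from 0.835 points at Ctsr to -27.7 points at Prl8a8, so some differed by as much as windows that were called. The Tpbpa window was at 40.5% and 43.3% in matDKO/CAST and at 69.8%, 69.4% and 67.6% in B6/CAST Epi (limma adjusted p = 0.0218). The count of 45 fell to 10 without the unnumbered B6/CAST Epi library, to 25 without B6/CAST replicate 3 and to 28 without CAST/B6 replicate 2, and was 0 on the logit scale.

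In ExE the Psg and Ceacam cluster stood lowest relative to other windows in matDKO/CAST. It was at 30.7%, 31.7% and 30.5% over 73 windows, and at 47.8% and 48.9% in B6/CAST (-17.4 points). Relative to like-length windows the matDKO/CAST libraries were at -7.41, -3.54 and -1.80 points and the B6/CAST libraries at 0.854 and 1.85, which do not overlap and whose means differ by -5.60 points. The 2 CAST/B6 libraries were at 3.76 and 0.725. The prolactin cluster (38 windows) was at 35.0%, 29.5% and 25.7% in matDKO/CAST and 41.6% and 38.8% in B6/CAST (-10.1 points, 0.357 relative to like length). The cathepsin cluster (88 windows) was at 42.6%, 42.6% and 42.1% against 58.3% and 55.1% (-14.3 points, -1.71 relative to like length). The -1.71 was within the pooled SD between libraries, 1.78 points. Without 1 library at a time the prolactin value relative to like length ran from -1.003 to 1.72.

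None of these ExE differences could pass an exact permutation test with 3 against 2 libraries (smallest p 0.1). With limma, 0 of 199 members and 0% of all autosomal windows were called, although 186 members lay below 0. At an unadjusted p under 0.05 there were 64 members, beside 25.8% of all autosomal windows. Against all wild-type ExE libraries in place of B6/CAST, 66 members were called lower, beside 26.3% of all autosomal windows. The count therefore depends on the control group, and CAST/B6 levels were higher than those of B6/CAST at E6.5.

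The tissue difference was still present in matDKO/CAST embryos. Epi was above ExE by 20.3 points in the prolactin (22 windows), 17.2 in the Psg and Ceacam (43 windows) and 13.2 in the cathepsin cluster (59 windows), with levels of 50.4%, 48.5% and 58.0% in Epi and 30.1%, 31.4% and 44.9% in ExE. Relative to like-length windows the differences were 3.44, 1.10 and -1.38 points, and without 1 library at a time they ran from 1.45 to 4.43, from -2.23 to 3.07 and from -2.10 to 0.2002 points. By limma, 33 of 124 members were called higher in Epi, beside 19.6% of all autosomal windows and 22.1% of like-length windows. The count was 18 without matDKO/CAST ExE replicate 3 and 4 on the logit scale, where 0.571% of all autosomal windows were called. Whether the tissue difference itself changed with the maternal genotype was tested by an interaction term between matDKO/CAST and B6/CAST. It called 0 of 124 members and 0% of all autosomal windows. At an unadjusted p under 0.05 there were 24 members, beside 8.8% of all autosomal windows. The median term was -5.03 points in members and -3.55 in all windows, and the mean was -5.05 in members and -7.47 in windows of like length.

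The 2 parental alleles differed little in the cluster means at E7.5. Reads that cover strain SNPs gave a maternal and a paternal value for 57 prolactin, 110 Psg and Ceacam and 121 cathepsin windows in all 4 ExE libraries, and for 30, 79 and 80 windows in all 4 Epi libraries. The maternal minus paternal difference was 0.0450, -0.386 and -0.214 points in ExE and 0.626, -0.361 and -0.756 points in Epi, as means over both crosses. With limma, 0 of 288 members were called in ExE, beside 0.00722% of all autosomal windows. In Epi 0 of 189 were called, beside 0.00838%. At an unadjusted p under 0.05 there were 21 members in ExE and 7 in Epi, beside 6.38% and 4.87% of all autosomal windows. The parental difference did not differ between the tissues beyond its spread (exact permutation p = 0.943, 0.971 and 0.657 for the 3 clusters over the windows complete in both tissues).

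Differences by strain were small but of 1 sign in several cases. In ExE the B6 allele was above the CAST allele in the Psg and Ceacam cluster in 4 of 4 libraries, by 3.04, 2.46, 5.74 and 1.30 points (mean 3.14, beside 0.536 in like-length windows). In Epi the prolactin cluster had the B6 allele higher in 4 of 4 libraries, by 3.21, 6.43, 2.17 and 4.97 points (mean 4.19, beside 0.586). No test of either was made, since an exact sign-flip test over 4 libraries cannot go below p = 0.125. With limma, 0 of 288 members in ExE and 0 of 189 in Epi were called, and 0% of all autosomal windows in each tissue. At an unadjusted p under 0.05 there were 31 and 24 members, beside 8.73% and 6.65% of all autosomal windows.

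In the cathepsin cluster the strain difference had opposite mean signs in the tissues. Over 121 windows in ExE the B6 allele was above the CAST allele by 1.20, 2.02, 0.941 and 3.13 points. Over 80 windows in Epi it was at -2.34, -1.31, 0.191 and -0.815 points. Over the 80 windows complete in both tissues the means were 1.04 in ExE and -1.07 in Epi, a difference of 2.11 points (exact permutation p = 0.0286, adjusted 0.0762 over 24 tests). The unadjusted p was above 0.05 in 7 of 8 cases with 1 library left out, and from 0.0571 to 0.314 by the exact permutation test under 6 other settings. The corresponding differences were -2.19 points in the prolactin (exact permutation p = 0.229) and 1.09 points in the Psg and Ceacam cluster (exact permutation p = 0.429).

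**Figure D5:**
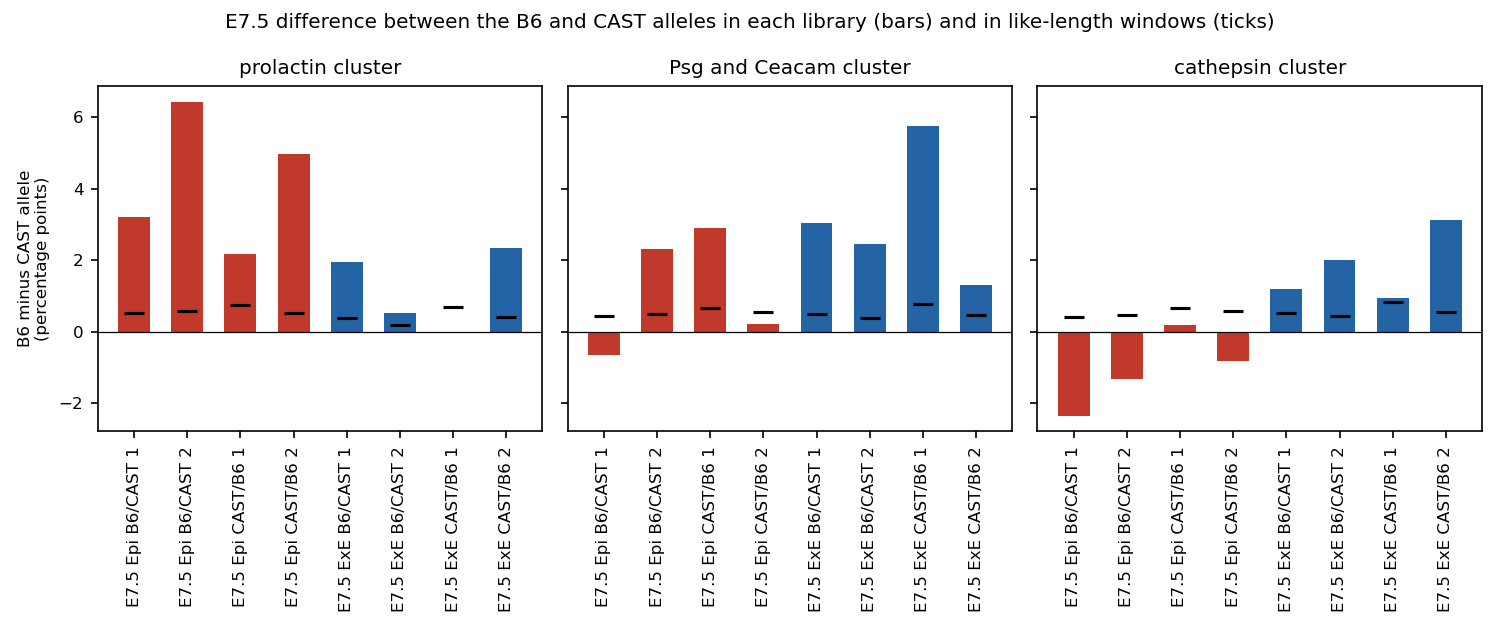
B6 minus CAST allele methylation (y axis, percentage points) of each cluster in each E7.5 library (x axis), as bars for the cluster and ticks for like-length windows. The Psg and Ceacam bars are above 0 in all 4 ExE libraries, up to 5.74 points, and like-length ticks stay below 1 point.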

How the data were processed

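DNA methylation was measured by post-bisulphite adaptor tagging (PBAT) in 15 E6.5 and 8 E7.5 libraries. Per the submitters' processing notes, reads were trimmed with Trim Galore 0.4.4 and aligned with Bismark 0.20.0 to GRCm38, in which strain SNPs were masked, and E7.5 reads were sorted by allele with SNPsplit. The deposited values are percent methylation of windows, in 3 tables (E6.5, E7.5, and E7.5 by allele), not scaled between libraries and without coverage. How windows were placed, a coverage minimum and the second import named in some column headings are not given in the sources used here. Of the B6/CAST Epi columns of E6.5, 1 has a known group and no known replicate number.

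The regions, genes and tests were chosen with earlier results of these data known. Cluster means used autosomal windows with a value in every library of a comparison. Like-length values are means of the other autosomal windows in 20 bins of log length, weighted as the members fall into the bins. Means were compared by two-sided exact permutation tests over libraries, which were taken as independent, with Benjamini-Hochberg adjustment over 24 tests. Windows were tested with limma 3.58.1 (R 4.3.3, default eBayes) on percent values over all autosomal windows, and were called at an adjusted p under 0.05. The wild-type tissue fits had the cross as a covariate, and the allele fits coded the cross by sign. The matDKO/CAST, cross and interaction fits used group means with no covariate. Their spread came from all libraries of the fit. For matDKO/CAST within a tissue these included CAST/B6, and between the matDKO/CAST tissues all 15 E6.5 libraries. Start windows contain the annotated start of a gene in the GRCm38 annotation. Values were given for preset hormone, Psg, Ceacam, Tpbp, Ctla2 and cathepsin genes and for windows under 20%. They were also given for the 2 windows of each cluster with the largest and the 2 with the lowest Epi minus ExE difference. Genes outside this rule (Prl2b1, Prl3c1, Prl8a2, Psg20 and Psg27 among them) were named after their values were seen. The limma fits were tested on simulated data. Python 3.11.15, pandas 2.3.3 and numpy 2.4.6 were used otherwise. Alternatives were other weightings, filters, length references, scales, controls, a replicate block and leaving out each library in turn.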

Additional observations from a re-analysis of the deposited data

Results flagged for a closer look

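Single libraries stood apart from the other 3 of their tissue at 2 start windows, out of 118 groups of 4 examined in this way, where chance alone marks about 5% of groups. The start window of Ctsj, a placental cathepsin gene, was at 32.1% in the E7.5 ExE library of CAST/B6 replicate 1, the lowest of 4, while the other ExE libraries were at 48.2% to 50.6%. The start window of Prl7b1 was at 49.8% in the E7.5 ExE library of B6/CAST replicate 2, the highest of 4, while the others were at 36.2% to 38.3%. Without a coverage column, the number of reads behind these values is unknown.

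The difference between B6 and CAST alleles of the cathepsin cluster was compared between the tissues at E7.5. ExE minus Epi was 2.11 points, and 2.10 points relative to like-length windows (exact permutation p = 0.0286 for each, adjusted 0.0762 over 24 tests, which does not pass). The B6 allele was higher in 4 of 4 ExE libraries and lower in 3 of 4 Epi libraries. With 1 library left out the difference stayed between 1.41 and 2.47 points, and p was above 0.05 in 7 of 8 such cases.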

How the results depend on the processing

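The tables hold no coverage, so thinly read windows could not be left out or weighted, and windows without a value in 1 library left the E6.5 comparisons. Whether replicate numbers pair the libraries is unknown. Correlations of the deviations of same-numbered libraries ran from 0.0486 to 0.0506 at E7.5 and from -0.00208 to 0.0267 for the E6.5 tissues. Against matDKO/CAST they ran from -0.0115 to 0.0145. Such low correlations cannot decide it, since the depth behind each value is unknown. At E7.5, within each cross, the library with the higher mean had the same replicate number in both tissues. This held for each cluster and for the other autosomal windows. With so few libraries it cannot decide the question either. With a replicate block, the E6.5 tissue difference of the prolactin cluster was 20.4 points. Between the E6.5 tissues, 68 of 227 members were called with the block (19.9% of all autosomal windows), against 151 of 208 without it. For matDKO/CAST Epi 0 of 142 were called, against 45 of 139 without it. Between the matDKO/CAST tissues 0 of 140 were called, against 33 of 124. The E6.5 fits with and without the block thus differed in the windows tested, and what the block alone changed was not tested. Between the E7.5 tissues, 330 members were called higher and 1 lower in Epi with the block, against 329 and 0 without it. No value past its test's threshold changed sign under an alternative, but many values with no test, or not past its threshold, did, among them the matDKO/CAST difference of prolactin in ExE over like length and the prolactin strain difference in ExE at E7.5, both given below. The cause of each change below was not tested.

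With all wild-type libraries as the control, matDKO/CAST differences were -26.2 (prolactin), -28.7 (Psg and Ceacam) and -21.5 (cathepsin) in Epi and -20.5, -25.7 and -19.9 in ExE (prolactin over like length -1.43), and 79 Epi and 66 ExE members were called (47.7% and 26.3% of all autosomal windows). On the logit scale 0 members were called for matDKO/CAST Epi and 4 between its tissues (0.571% of all autosomal windows), and with at least 20 points required 187 were called between the E7.5 tissues. In matDKO/CAST ExE, Psg and Ceacam gave -16.5 weighted by length, cathepsin -16.8 as a median and -12.0 within the gene span, and prolactin over like length -1.93 within the span and -2.34 with every second window. The matDKO/CAST tissue difference was 15.9 for Psg and Ceacam with fewer libraries required in each group, and for cathepsin 14.1 weighted by length, 14.3 as a median, 13.8 with fewer libraries required, 16.4 within the span, 12.5 without values of 0 or 100 and 15.3 with every second window. The E6.5 ExE cross difference was 20.6 (Psg and Ceacam, median), 13.8, 13.1 and 16.5 (cathepsin weighted by length, median, span) and 19.1 and 18.6 (prolactin, span and every second window). At E7.5 in ExE the cathepsin cross difference was -4.12 within the span and the prolactin strain difference -0.493 with every second window.

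Over like length, the E7.5 tissue difference was -2.56 for Psg and Ceacam with every second window, 1.12 for cathepsin against the same chromosome, and 2.03 and 2.02 for prolactin with 5 bins and the same chromosome. At E6.5 it was -1.83 for Psg and Ceacam with fewer libraries required, and -3.02 and -2.32 for cathepsin as a median and without values of 0 or 100 (exact permutation p from 0.00476 to 0.0381). The cathepsin strain difference between tissues was 1.88 weighted by length, 1.52 as a median, 1.81 with fewer libraries required, 3.05 within the span, 2.11 without values of 0 or 100 and 1.69 with every second window (exact permutation p from 0.0571 to 0.314), and relative to like length 1.97, 1.41, 1.79, 3.26 and 1.73, the last with every second window.

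Leaving out 1 library at a time gave the following ranges. Over like length, the tissue difference ran from -3.61 to -2.56 for Psg and Ceacam at E7.5, and at E6.5 from -1.67 to -0.662 for Psg and Ceacam and from -2.49 to -0.821 for cathepsin. The matDKO/CAST minus B6/CAST difference in ExE ran from -15.8 to -12.7 for cathepsin and, over like length, from -1.003 to 1.72 for prolactin. The same difference in Epi, over like length, ran from -6.00 to -0.460 for Psg and Ceacam and from 0.276 to 4.21 for prolactin, and 10 to 51 members were called. The matDKO/CAST tissue difference ran from 14.9 to 18.0 for Psg and Ceacam and from 13.0 to 13.9 for cathepsin, with 18 to 34 members called, the lowest without ExE replicate 3. The E6.5 ExE cross difference of prolactin ran from 19.0 to 22.1. The strain difference between tissues ran from 1.41 to 2.47 for cathepsin (1.44 to 2.41 over like length) and from -2.91 to -1.20 for prolactin.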
